A study of Saccharomyces cerevisiae with 12 samples.

Results

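Aminoacyl-tRNA synthetases are the enzymes that join each amino acid to its transfer RNA, the step that fixes which amino acid a codon stands for. Yeast carries one set for the cytosol and another for the mitochondrion, whose own ribosomes make a handful of respiratory chain subunits from mitochondrial DNA. Both sets are encoded in the nucleus, and a few genes supply both places through alternative start sites. Uncharged tRNA, which builds up when amino acids run short, activates the kinase Gcn2, and this raises translation of the transcription factor Gcn4.

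The 33 genes described here were listed by systematic name and are 33 of the 6685 genes in the deposited table. They comprise 20 genes for cytosolic enzymes and 13 genes for mitochondrial enzymes. Of the 20, 4 (ALA1, GRS1, HTS1 and VAS1) were taken here as also supplying the mitochondrion, and others may do so too. The cytosolic genes cover 19 amino acids, since phenylalanyl-tRNA synthetase has 2 subunits, FRS1 and FRS2, and the prolyl enzyme, YHR020W, was not on the list. By the fold of their catalytic domain, 17 of the 33 enzymes belong to class I and 16 to class II. The reference annotation names the cytosolic arginyl gene only as YDR341C, and that name is used here.

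The 12 libraries came from Saccharomyces cerevisiae of the CEN.PK background, mating type a, either wild type (WT) or cho2-delta, in which CHO2 was replaced by KanMX. CHO2 encodes the enzyme that carries out the first methylation of phosphatidylethanolamine on the way to phosphatidylcholine. Each strain was sampled in logarithmic growth in YPL, a rich lactate medium, and after 1 h and 3 h in SL, a minimal lactate medium without amino acids, with 2 libraries for each of the 6 groups. YPL held yeast extract (1%), peptone (2%) and lactate (2%), and SL held nitrogen base (0.17%), ammonium sulfate (0.5%) and the same lactate. Every group thus grew on a respired carbon source, and the switch changed the supply of amino acids and other nutrients and not the carbon source. Poly-A RNA was sequenced, and the values are normalised read counts.

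Recovered reads ranged from 3.17 M (mega) in the second WT library at 3 h to 12.5 M, and the second lowest library had 9.17 M. The second cho2-delta library at 3 h stood apart, with its median gene 0.34 below the mean of the libraries on the log2 scale, where the others lay between -0.07 and 0.17. CHO2 was at 1570.5 or more in every WT library and at 9.19 or less in every cho2-delta library. All 33 synthetase genes passed the filter on low values, and DIA4 was lowest, with 120.2 and 142 in WT cells at 3 h, the latter from 50 reads. None of the 33 overlapped another gene of the reference annotation, which lacks 679 of the listed names.

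In WT cells the mRNAs of all 33 synthetases fell within 1 h of the switch, and the mitochondrial set had the larger median fall. Together the 20 cytosolic genes took 0.672% and 0.666% of all reads in the WT libraries in YPL. That share was 0.319% and 0.279% at 1 h in SL and 0.389% and 0.366% at 3 h. The 13 mitochondrial genes took 0.192% and 0.217% in YPL, 0.0498% and 0.0531% at 1 h, and 0.0372% and 0.0403% at 3 h. The cytosolic share thus stood higher at 3 h than at 1 h, and the mitochondrial share stood lower. In cho2-delta the cytosolic share was 0.625% and 0.565% in YPL, 0.323% and 0.313% at 1 h, and 0.360% and 0.321% at 3 h. The mitochondrial share there was 0.196% and 0.193% in YPL, 0.0401% and 0.0407% at 1 h, and 0.0399% and 0.0346% at 3 h. All values are relative to the library, so a lower share cannot be told apart from a rise of other mRNAs. Cells were not read singly, so a change in mRNA per cell and a change in the number of cells that hold the mRNA cannot be told apart either.

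**Figure D1:**
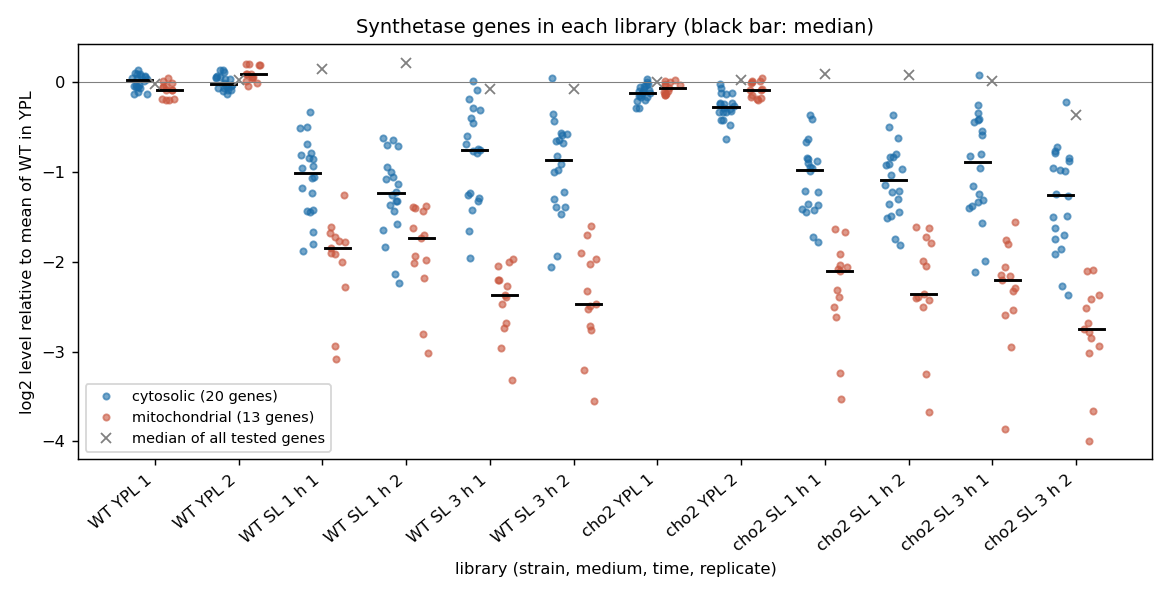
Level of each synthetase gene in each library on the log2 scale (y axis), relative to its mean in WT cells in YPL, for the 20 cytosolic (blue) and 13 mitochondrial (red) genes; bars are medians, crosses the median of all tested genes, and libraries stand along the x axis. The median of the cytosolic genes was -1.01 and -1.24 in the WT libraries at 1 h and -0.75 and -0.87 at 3 h, and that of the mitochondrial genes was -1.85 and -1.74 at 1 h and -2.37 and -2.46 at 3 h.

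Levels between genes were compared per kilobase of gene. In WT cells in YPL the cytosolic genes ran from 414 normalised reads per kilobase for KRS1, which encodes the lysyl enzyme, to 3350.3 for SES1, the seryl enzyme, with a median of 1400. The mitochondrial genes ran from 492 for ISM1, the isoleucyl enzyme, to 1727 for MSY1, the tyrosyl enzyme, with a median of 809. At 1 h in SL the medians per kilobase were 672 for the cytosolic and 212 for the mitochondrial genes. At 3 h they were 724 and 149. The ranges of the sets overlapped in YPL, while at 3 h the highest mitochondrial gene, MSR1 for the arginyl enzyme, at 245 per kilobase lay below the lowest cytosolic gene, KRS1, at 344.

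The promoters of both sets were read because the falls were shared by whole sets. All motifs were searched on both strands. The motif described first here, which was not the first searched, is AAAATTT. This is the core of the ribosomal RNA processing element (RRPE), which is known from genes of ribosome assembly. It was found in the window from 250 bases before to 50 bases after the start codon of 17 of the 20 cytosolic genes (85.0%). It was found in 1 of the 13 mitochondrial genes (7.69%), MSM1 for the methionyl enzyme, and in 1391 of all 6001 promoters (23.2%). The cytosolic genes without it were ALA1, DPS1 and KRS1. Among genes for cytosolic ribosomal proteins 29.9% held it, and among those for mitochondrial ribosomal proteins 20%. These shares are descriptions, and a match to the letters is not a site of binding.

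Windows around this motif are shown for the 5 cytosolic genes with the largest falls at 1 h and for YDR341C. YDR341C, SES1, GRS1 and THS1 were called higher at 3 h than at 1 h in WT cells. Of these, only YDR341C kept that call without the second WT library at 1 h. The windows were chosen with their values known. They were read 5′ to 3′ on the strand of the gene from the RefSeq reference genome R64, of strain S288C and not CEN.PK. Capitals mark the motif in either orientation, and both orientations overlap in AAAATTTT.
SES1 (YDR023W, seryl), chrIV:489335-489394, plus strand: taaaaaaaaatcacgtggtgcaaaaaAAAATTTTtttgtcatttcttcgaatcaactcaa
GRS1 (YBR121C, glycyl), chrII:483558-483617, minus strand: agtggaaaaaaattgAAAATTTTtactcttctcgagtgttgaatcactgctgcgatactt
THS1 (YIL078W, threonyl), chrIX:212321-212380, plus strand: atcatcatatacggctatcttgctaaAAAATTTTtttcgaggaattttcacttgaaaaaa
DED81 (YHR019C, asparaginyl), chrVIII:143709-143768, minus strand: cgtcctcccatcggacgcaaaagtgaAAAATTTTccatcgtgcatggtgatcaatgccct
YDR341C (arginyl), chrIV:1153718-1153777, minus strand: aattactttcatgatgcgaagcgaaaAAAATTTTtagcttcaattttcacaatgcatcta
CRS1 (YNL247W, cysteinyl), chrXIV:182720-182779, plus strand: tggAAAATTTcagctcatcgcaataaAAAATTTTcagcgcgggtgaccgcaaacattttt
Distances were counted from the first base of the match nearest the start codon, and that base is the second capital of AAAATTTT. The element lay 146 bases before the start codon in SES1, 234 in GRS1 and 151 in THS1. In DED81, YDR341C and CRS1 it lay 183, 124 and 128 bases before the start codon. In all 6 windows the core nearest the start codon lay in the longer run AAAATTTT. The CRS1 window also shows a second core further upstream, which is AAAATTT and not the longer run.

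The core of the Gcn4 site, TGACTC, was found on either strand in 8 of the 20 cytosolic promoters (40%), in none of the 13 mitochondrial promoters and in 7.98% of all promoters. The 8 genes were ALA1, ILS1, KRS1, THS1, VAS1, YDR341C, GLN4 and CRS1. The longer TGACTCA, which contains that core, was found in YDR341C and GLN4 and in 2.73% of all promoters. In GLN4 both the core and the longer site lay after the start codon, within the coding sequence. KRS1, THS1 and YDR341C are shown, with the core in capitals in either orientation. They are 3 of the 4 holders of the core, with VAS1, that were called higher at 3 h than at 1 h in WT cells. Of these 4, only YDR341C kept that call without the second WT library at 1 h.
KRS1 (YDR037W, lysyl), chrIV:525279-525338, plus strand: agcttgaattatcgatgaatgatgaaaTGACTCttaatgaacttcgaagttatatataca
THS1 (threonyl), chrIX:212268-212327, plus strand: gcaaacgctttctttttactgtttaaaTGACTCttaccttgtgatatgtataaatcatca
YDR341C (arginyl), chrIV:1153794-1153853, minus strand: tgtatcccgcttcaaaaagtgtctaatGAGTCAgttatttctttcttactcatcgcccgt
The core lay 134 bases before the start codon in KRS1, 204 in THS1 and 200 in YDR341C. The PAC motif GATGAG, often found near RRPE, was in 7 of the 20 cytosolic promoters (35.0%), in 1 of the 13 mitochondrial promoters, that of MSE1, and in 20.4% of all promoters. In THS1 and WRS1 the PAC match overlapped the start codon itself.

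**Figure D2:**
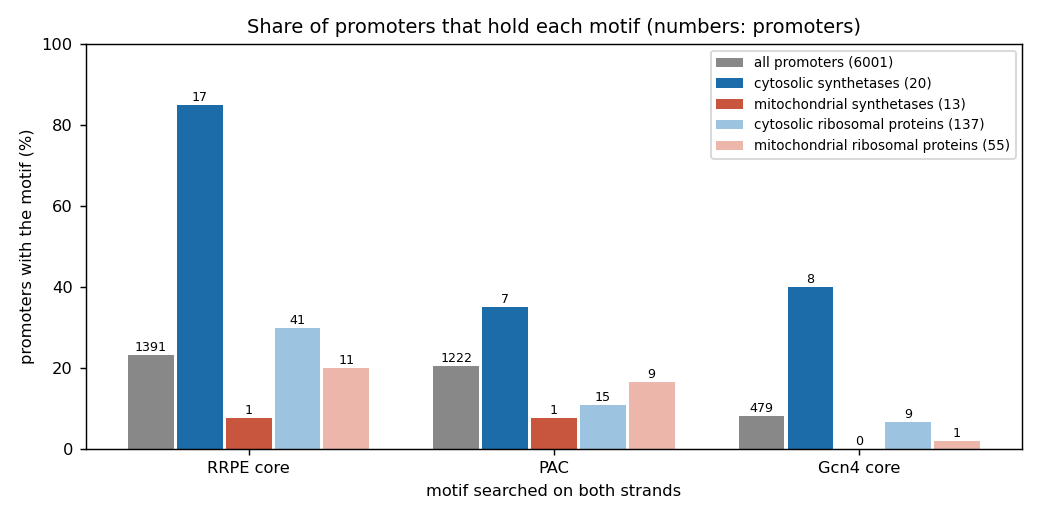
Share of promoters (y axis, percent) that hold each of 3 motifs on either strand (x axis), with the number of promoters above each bar, for all genes, both synthetase sets and both sets of ribosomal protein genes. The RRPE core was in 17 of 20 cytosolic and 1 of 13 mitochondrial synthetase promoters, beside 23.2% of all promoters.

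The first comparison asked how the switch from rich to minimal medium changed the mRNAs in WT cells. At 1 h, 20 of 20 cytosolic and 13 of 13 mitochondrial synthetase genes fell at an adjusted p under 0.05 in limma, where 57.5% of all genes tested were called, 33.7% higher and 23.8% lower. The median log2 difference was -1.09 over the cytosolic and -1.76 over the mitochondrial genes, beside 0.18 over all 6546 genes tested. For each of the 33 genes both libraries at 1 h lay below both libraries in YPL, as was so for 32.4% of all genes tested. Whether paired libraries came from separate cultures is not stated in the labels, and p-values may reflect technical spread alone.

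Of the cytosolic genes, SES1 (YDR023W) fell furthest, from 4785 and 4522 in YPL to 1332 and 986 at 1 h. The log2 difference was -2.02 ± 0.18 (SE; limma adjusted p = 9.14e-10), a 4.05-fold fall. GRS1 (YBR121C), whose glycyl enzyme serves both the cytosol and the mitochondrion, stood at 6764 and 6438 in YPL and at 1796 and 1497 at 1 h, a difference of -2.01 ± 0.19 (limma adjusted p = 1.78e-09). Both genes had lost most of their level within the first hour. DED81 (YHR019C), for the asparaginyl enzyme, went from 4243 and 5104 to 1462 and 1480.5, a difference of -1.66 ± 0.16 (limma adjusted p = 4.62e-09). THS1, for the threonyl enzyme, fell by 1.64 ± 0.18 on the log2 scale and CRS1, for the cysteinyl enzyme, by 1.51 ± 0.17.

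The smallest falls were those of ALA1 and CDC60. ALA1 (YOR335C), whose alanyl enzyme also serves both places, was at 4009.8 and 3550.2 in YPL and at 2998 and 2314 at 1 h, a difference of -0.52 ± 0.19 (limma adjusted p = 0.0243). CDC60 (YPL160W), for the leucyl enzyme, went from 2116 and 2219 to 1520.3 and 1404, a difference of -0.57 ± 0.17 (limma adjusted p = 0.00529). The other genes taken as dual, HTS1 for histidyl and VAS1 for valyl, fell by 0.73 ± 0.18 and 1.05 ± 0.18. The genes taken as dual therefore spanned nearly the whole cytosolic range, with a median of -0.89. The subunits of phenylalanyl-tRNA synthetase, which form one complex, fell by 1.43 ± 0.16 (FRS1, YLR060W, beta) and 0.79 ± 0.17 (FRS2, YFL022C, alpha). Cytosolic class I genes had a median of -1.09 and class II genes of -1.18. The falls of ALA1, HTS1 and CDC60 lost their call without the second WT library at 1 h, which left 17 cytosolic genes called, and that of ALA1 also without the first WT library in YPL.

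The mitochondrial differences ran from -1.32 to -3.05 on the log2 scale. MSY1 (YPL097W), for the tyrosyl enzyme, went from 2228 and 2881 in YPL to 298 and 312 at 1 h, a difference of -3.05 ± 0.20 (limma adjusted p = 5.35e-12) and an 8.28-fold fall. MSK1 (YNL073W), for the lysyl enzyme, went from 2520.3 and 2861 to 350.1 and 385, a difference of -2.87 ± 0.17 (limma adjusted p = 9.23e-13). These were also the mitochondrial synthetase genes with the highest levels per kilobase in YPL, at 1727 and 1554. NAM2 (YLR382C), for the leucyl enzyme, which is also known for a part in splicing mitochondrial introns, went from 1983 and 2022 to 412 and 439, a difference of -2.23 ± 0.17 (limma adjusted p = 9e-11). MSW1 (YDR268W), for the tryptophanyl enzyme, fell least, by 1.32 ± 0.24, from 639.7 and 695 to 279 and 255.

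**Figure D3:**
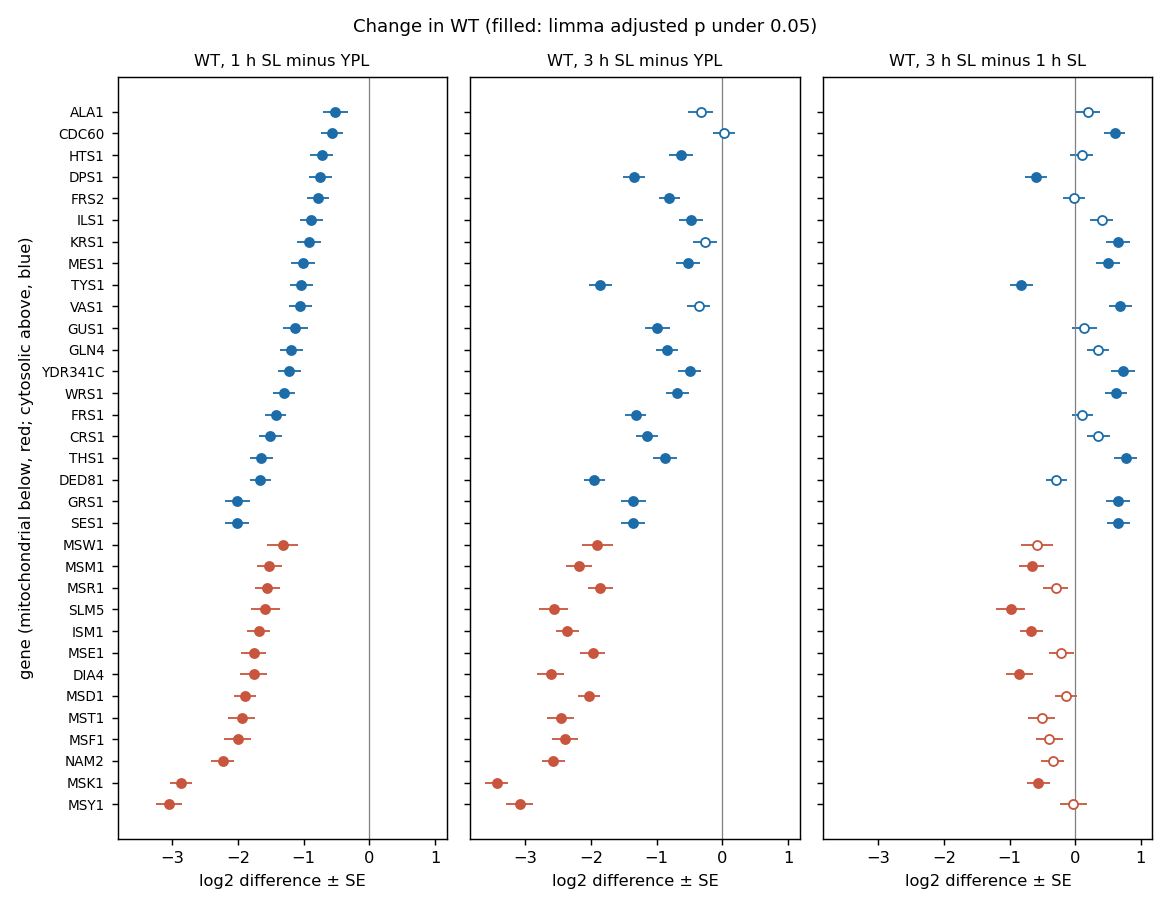
Log2 difference ± SE (x axis) of each synthetase gene (y axis) in WT cells for 1 h SL minus YPL, 3 h SL minus YPL and 3 h minus 1 h in SL; filled points had a limma adjusted p under 0.05. All 33 points of the first panel lie below 0, from -0.52 for ALA1 to -3.05 for MSY1, and in the third panel the cytosolic genes have a median of 0.38 and the mitochondrial genes of -0.51.

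Set beside other genes of translation, the synthetases fell less than the ribosomal protein genes at 1 h. Of 137 cytosolic ribosomal protein genes 137 fell, with a median of -2.78, and of 55 mitochondrial ribosomal protein genes 55 fell, with a median of -2.47. The difference between these lists was not tested. Of 6 mitochondrial translation factors 6 fell, among them the elongation factors MEF1 (-3.92 ± 0.17) and TUF1 (-3.05 ± 0.18). Of 12 cytosolic elongation and termination factors 10 fell, among them TEF4 (-3.08 ± 0.19) and YEF3 (-2.87 ± 0.20). Of 10 subunits found in RNA polymerase III alone, which transcribes the tRNA genes, 3 fell and 1 rose. Over all genes tested, 23.8% were called lower and 33.7% higher. Of 5 genes of the uncharged tRNA response, GCN1, GCN3 and GCN20 fell and GCN2 rose, by 0.49 ± 0.18 (limma adjusted p = 0.0209). GCN4 mRNA was at 16453 and 14288 in YPL, at 13443 and 10660 at 1 h and at 14318 and 15403 at 3 h, a difference at 1 h of -0.36 ± 0.17 that limma and edgeR did not call (limma adjusted p = 0.0793) and that DESeq2 and TMM scaling called lower. Gcn4 is controlled mainly in translation, which these libraries do not measure.

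Synthetase genes outside the 33 and partners of the enzymes moved in both directions at 1 h, with 5 of 8 called lower and 2 higher. Among all genes tested 23.8% were called lower and 33.7% higher. The cytosolic prolyl gene YHR020W fell (-1.60 ± 0.19), as did its likely mitochondrial counterpart AIM10 (-1.86 ± 0.19) and ARC1, a cofactor that binds the methionyl and glutamyl enzymes (-1.48 ± 0.16). GRS2, a close copy of GRS1, went the other way. It was at 529.5 and 621 in YPL, 929 and 1022 at 1 h and 643 and 689.5 at 3 h, with a rise of 0.76 ± 0.20 at 1 h (limma adjusted p = 0.00186). At 1 h GRS1 thus stood at 822 per kilobase and GRS2 at 525, where in YPL they stood at 3294 and 309.6. The proteins were identical at 61.0% of 607 aligned residues. GTF1, a subunit of the enzyme that makes mitochondrial glutaminyl-tRNA by amidation, rose by 0.67 ± 0.20 (limma adjusted p = 0.00698), while its partners PET112 and HER2 fell by 0.67 ± 0.18 and 1.22 ± 0.20.

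The second comparison followed WT cells from 1 h to 3 h in SL, where 36.6% of all genes were called, 11.1% higher and 25.5% lower. It shares its 1 h libraries with the first comparison, so the falls there and the rises here are not independent. The sets moved apart. Of the 20 cytosolic genes 9 rose (GRS1, KRS1, MES1, SES1, THS1, VAS1, WRS1, YDR341C and CDC60) and 2 fell (TYS1 and DPS1), with a median of 0.38. Of the 13 mitochondrial genes none rose and 5 fell (SLM5, DIA4, ISM1, MSM1 and MSK1), with a median of -0.51 beside -0.21 over all genes. With TMM scaling the median of all genes was -0.02, and 13 cytosolic genes rose and 2 fell. Over all 6546 genes that scaling called 1367 higher and 1298 lower, beside 726 and 1671 with the deposited scaling. Without the second WT library at 1 h, 1 cytosolic gene was called higher (YDR341C), 1 lower (TYS1) and 2 mitochondrial genes lower (SLM5 and ISM1). In that library all 9 genes that rose were lower than in the other library at 1 h. The RRPE core was in 8 of the 9 cytosolic promoters of genes that rose and in 9 of the other 11. The Gcn4 core was in 4 of the 9 and in 4 of the 11, among the latter GLN4, where it lay after the start codon.

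THS1 was at 1604 and 1219.8 at 1 h and at 2605 and 2179.7 at 3 h, a rise of 0.77 ± 0.18 (limma adjusted p = 0.00175). YDR341C was at 1366 and 1295 at 1 h and at 2349.9 and 2057 at 3 h, a rise of 0.72 ± 0.18 (limma adjusted p = 0.00267). CDC60 was at 1520.3 and 1404 at 1 h and at 2186 and 2239.5 at 3 h, so that its values at 3 h overlapped those in YPL. Against the trend of the cytosolic set, TYS1 (YGR185C), for the tyrosyl enzyme, was at 909 and 946 at 1 h and at 599.8 and 456 at 3 h, a fall of 0.83 ± 0.17 (limma adjusted p = 0.00067). DPS1 (YLL018C), for the aspartyl enzyme, was at 2853 and 3292 at 1 h and at 2091 and 1957 at 3 h, a fall of 0.60 ± 0.17 (limma adjusted p = 0.00739). In each of these 5 genes the libraries at 1 h and 3 h did not overlap; of all genes tested, 21.2% had both libraries at 3 h above both at 1 h and 49.7% had both below.

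Among the mitochondrial genes SLM5 (YCR024C), for the asparaginyl enzyme, was at 382 and 491 at 1 h and at 251 and 191 at 3 h, a fall of 0.98 ± 0.22 (limma adjusted p = 0.00117). DIA4 (YHR011W), for the seryl enzyme, was at 215 and 261 at 1 h and at 120.2 and 142 at 3 h, a fall of 0.85 ± 0.21 (limma adjusted p = 0.00266). ISM1 (YPL040C) was at 461 and 455 at 1 h and at 281 and 293 at 3 h, a fall of 0.67 ± 0.17 (limma adjusted p = 0.00389). All 13 mitochondrial genes had a difference below 0, as had 4382 of all 6546 genes tested. In 11 of the 13 both libraries at 3 h lay below both at 1 h, beside the 49.7% of all genes. MSY1, which had fallen furthest by 1 h, was at 326 and 274 at 3 h and did not change beyond the spread (-0.03 ± 0.20). Over the same hours 130 of 137 cytosolic ribosomal protein genes rose in limma, with a median of 1.15, where 11.1% of all genes were called higher. Of 55 mitochondrial ribosomal protein genes limma called 9 lower and 0 higher, beside 25.5% of all genes called lower. DESeq2 called 4 of them lower and 2 higher, and TMM scaling 6 lower and 3 higher. Over all 6546 genes DESeq2 called 1195 lower and 1407 higher, and TMM scaling 1298 and 1367.

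Measured from YPL to 3 h in WT, a comparison that shares its YPL libraries with the one at 1 h, 16 cytosolic and 13 mitochondrial genes fell, where 53.7% of all genes were called and 30.8% were called lower. The medians were -0.82 for the cytosolic and -2.40 for the mitochondrial genes. The cytosolic genes not called were ALA1, KRS1, VAS1 and CDC60, with CDC60 at 0.03 ± 0.17. DED81 and TYS1 had the lowest cytosolic values, at -1.95 ± 0.16 and -1.86 ± 0.17. Of the mitochondrial genes MSK1 was lowest at -3.43 ± 0.17 and MSR1 highest at -1.85 ± 0.19.

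For 13 amino acids, 14 pairs of a cytosolic and a mitochondrial gene could be set side by side within each library, phenylalanine giving 2 pairs. In WT the ratio of the mitochondrial to the cytosolic value was lower in both libraries at 1 h than in both in YPL in 10 of 14 pairs, and in cho2-delta in 14 of 14. The exceptions in WT were arginine (MSR1 and YDR341C), tryptophan (MSW1 and WRS1), asparagine (SLM5 and DED81) and serine (DIA4 and SES1). In 10 of 14 pairs every library in SL, of either strain and time, lay below every library in YPL.

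The lysine pair moved furthest by 3 h in both strains, while at 1 h in WT the tyrosine pair had moved further. The ratio of MSK1 to KRS1 was 3.57 and 3.75 in WT in YPL, 0.825 and 1.09 at 1 h, and 0.416 and 0.396 at 3 h. In cho2-delta it was 3.87 and 4.59 in YPL, 0.580 and 0.537 at 1 h, and 0.340 and 0.395 at 3 h. Per kilobase the mitochondrial gene stood above the cytosolic one in WT in YPL (1554 and 414), near it at 1 h (212 and 219) and below it at 3 h (144 and 344). The leucine pair went the same way, with NAM2 against CDC60 at 746 and 662 per kilobase in YPL, 159 and 447 at 1 h, and 126 and 676 at 3 h. The tyrosine and aspartate pairs differed in their later course in WT, where TYS1 and DPS1 fell between 1 h and 3 h. The ratio of MSY1 to TYS1 was 1.23 and 1.45 in WT in YPL, 0.328 and 0.330 at 1 h, and 0.543 and 0.600 at 3 h. The ratio of MSD1 to DPS1 was 0.421 and 0.344 in WT in YPL, 0.190 and 0.1545 at 1 h, and 0.226 and 0.246 at 3 h.

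**Figure D4:**
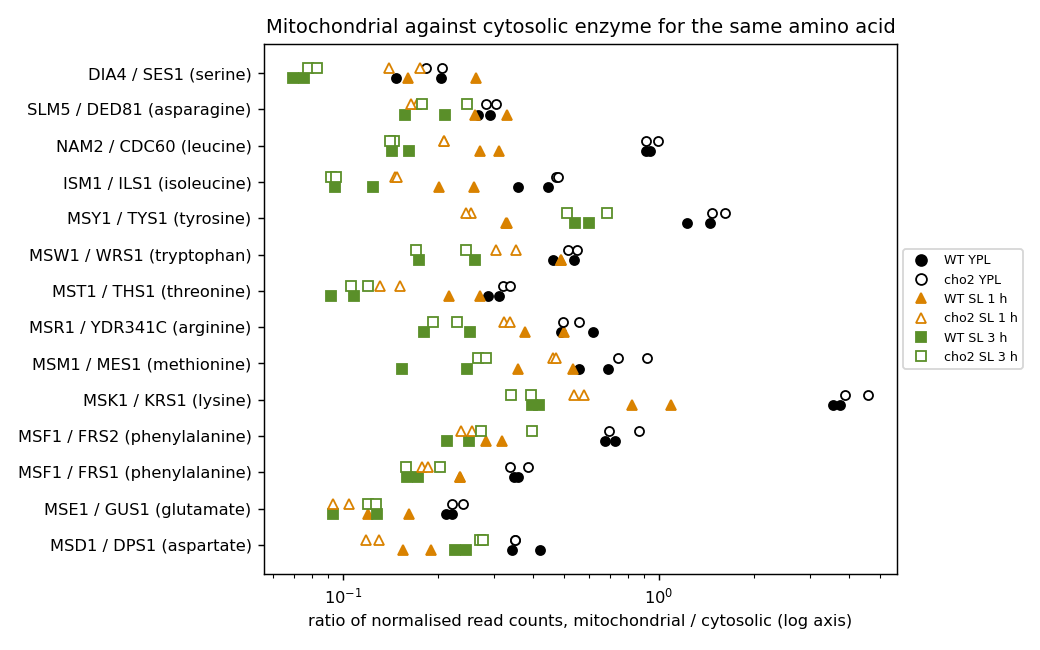
Ratio of the normalised read count of the mitochondrial to that of the cytosolic gene for the same amino acid (x axis, log scale) in each library, for 14 pairs (y axis); symbols give medium and time, filled for WT and open for cho2-delta. The MSK1 to KRS1 ratio goes from 3.57 or more in YPL to 0.416 or less at 3 h, whereas the ratios of SLM5 to DED81 in WT overlap between YPL and 1 h.

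The members of a pair are separate proteins of varied likeness. Over the 11 pairs with at least 200 aligned residues, identity ran from 24.3% for the methionyl pair, MES1 and MSM1, to 59.2% for the arginyl pair, YDR341C and MSR1. The threonyl pair, THS1 and MST1, had 44.7% and the lysyl pair 35.6%. The most alike of these pairs, arginyl, was also 1 of the 4 whose ratios at 1 h in WT overlapped those in YPL.

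In cho2-delta the same course was seen from YPL to 1 h, with 18 of 20 cytosolic and 13 of 13 mitochondrial genes called lower, where 49.8% of all genes were called and 24.6% were called lower. The medians were -0.79 and -2.04. ALA1 and CDC60 were not called in limma, at -0.42 ± 0.19 and -0.21 ± 0.17, while DESeq2 and TMM scaling each called 19 cytosolic genes lower, ALA1 among them. Over all 6546 genes DESeq2 called 1957 lower and TMM scaling 1993, beside 1612 in limma. SES1 went from 4191 and 3935 to 1352 and 1386, a fall of 1.57 ± 0.18, and MSK1 went from 2453 and 2426 to 232 and 209, a fall of 3.46 ± 0.17. Without the first cho2-delta library in YPL 12 cytosolic genes were called. From YPL to 3 h, with the same YPL libraries, 15 cytosolic and 13 mitochondrial genes fell, with medians of -0.83 and -2.47, where 56.8% of all genes were called and 37% were called lower.

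From 1 h to 3 h in cho2-delta, where 31.7% of all genes were called, 7.99% higher and 23.8% lower, WRS1 for the tryptophanyl enzyme rose (0.62 ± 0.17) and DED81, DPS1, TYS1 and FRS2 fell. DPS1 was at 3854 and 3635 at 1 h and at 1734 and 1366 at 3 h, a fall of 1.28 ± 0.17 (limma adjusted p = 2.68e-06). TYS1 was at 1056 and 1089 at 1 h and at 479 and 392 at 3 h, a fall of 1.30 ± 0.17 (limma adjusted p = 3.45e-06). Both genes thus fell in both strains over these hours. Of the mitochondrial genes SLM5 and DIA4 fell, by 0.70 ± 0.22 and 0.60 ± 0.21. The count of cytosolic rises was 1 with the deposited scaling, 11 with TMM scaling and 9 without the second cho2-delta library at 3 h. Over all 6546 genes, 523 were called higher with the deposited scaling and 1310 with TMM scaling. For the fit without that library the count over all genes is not given here.

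The third comparison set cho2-delta against WT in each medium and time. In YPL no synthetase gene was called in limma, edgeR or DESeq2, where 0.412% of all genes were called, and 1 gene, MES1 for the cytosolic methionyl enzyme, had an unadjusted p under 0.05 (-0.46 ± 0.18; limma adjusted p = 0.57). MES1 was at 1912 and 1735 in WT and at 1492 and 1174 in cho2-delta. The median difference was -0.19 over the cytosolic and -0.06 over the mitochondrial genes, beside 0.01 over all genes. Both cho2-delta libraries lay below both WT libraries in 14 of 20 cytosolic and 5 of 13 mitochondrial genes, and in 21.6% of all genes.

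At 1 h in SL, 2 mitochondrial genes were lower in cho2-delta, where 9.23% of all genes were called and 5.59% were called lower. MSK1 was at 350.1 and 385 in WT and at 232 and 209 in cho2-delta, a difference of -0.73 ± 0.17 (limma adjusted p = 0.00747). ISM1 was at 461 and 455 in WT and at 297 and 279.6 in cho2-delta, a difference of -0.67 ± 0.17 (limma adjusted p = 0.0146). The strains did not overlap in either gene. All 13 mitochondrial genes had a difference below 0, as had 3885 of all 6546 genes tested. The median over the 13 was -0.37, beside -0.07 over all genes. In 11 of the 13 both cho2-delta libraries lay below both WT libraries, as in 39.9% of all genes. The call of ISM1 was lost without any 1 of the 4 libraries at 1 h, and that of MSK1 without the second WT or either cho2-delta library.

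No cytosolic gene was called at 1 h in limma, and 1, DED81, had an unadjusted p under 0.05. Their median difference was 0.05, and 7 of 20 genes had both cho2-delta libraries above both WT libraries, as had 24.6% of all genes. edgeR called none, while DESeq2 and TMM scaling each called DED81, DPS1 and YDR341C higher in cho2-delta. Over all 6546 genes DESeq2 called 647 higher and TMM scaling 528, beside 238 in limma. DED81 was at 1462 and 1480.5 in WT and at 1996 and 1989 in cho2-delta, a difference of 0.44 ± 0.16 (limma adjusted p = 0.102).

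At 3 h in SL, where 3.44% of all genes were called and 2.83% were called lower, FRS2 was the single synthetase gene called. It was at 939 and 920.3 in WT and at 623 and 578 in cho2-delta, a difference of -0.63 ± 0.17 (limma adjusted p = 0.0351), and the strains did not overlap. FRS1, for the partner subunit, was at 1358 and 1234 in WT and at 1220.4 and 995 in cho2-delta, a difference of -0.23 ± 0.16 that was not called. The FRS2 call was kept in 5 of the 12 fits that left out 1 library, and lost without either WT or the second cho2-delta library at 3 h, without either cho2-delta library in YPL and without either cho2-delta library at 1 h. In 10 of 20 cytosolic and 4 of 13 mitochondrial genes both cho2-delta libraries lay below both WT libraries, as in 23.8% of all genes. The medians were -0.26 over the cytosolic and -0.12 over the mitochondrial genes, beside -0.08 over all genes. No mitochondrial gene was called at 3 h in limma, edgeR or DESeq2, and 1, MSK1, had an unadjusted p under 0.05 (-0.49 ± 0.17).

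**Figure D5:**
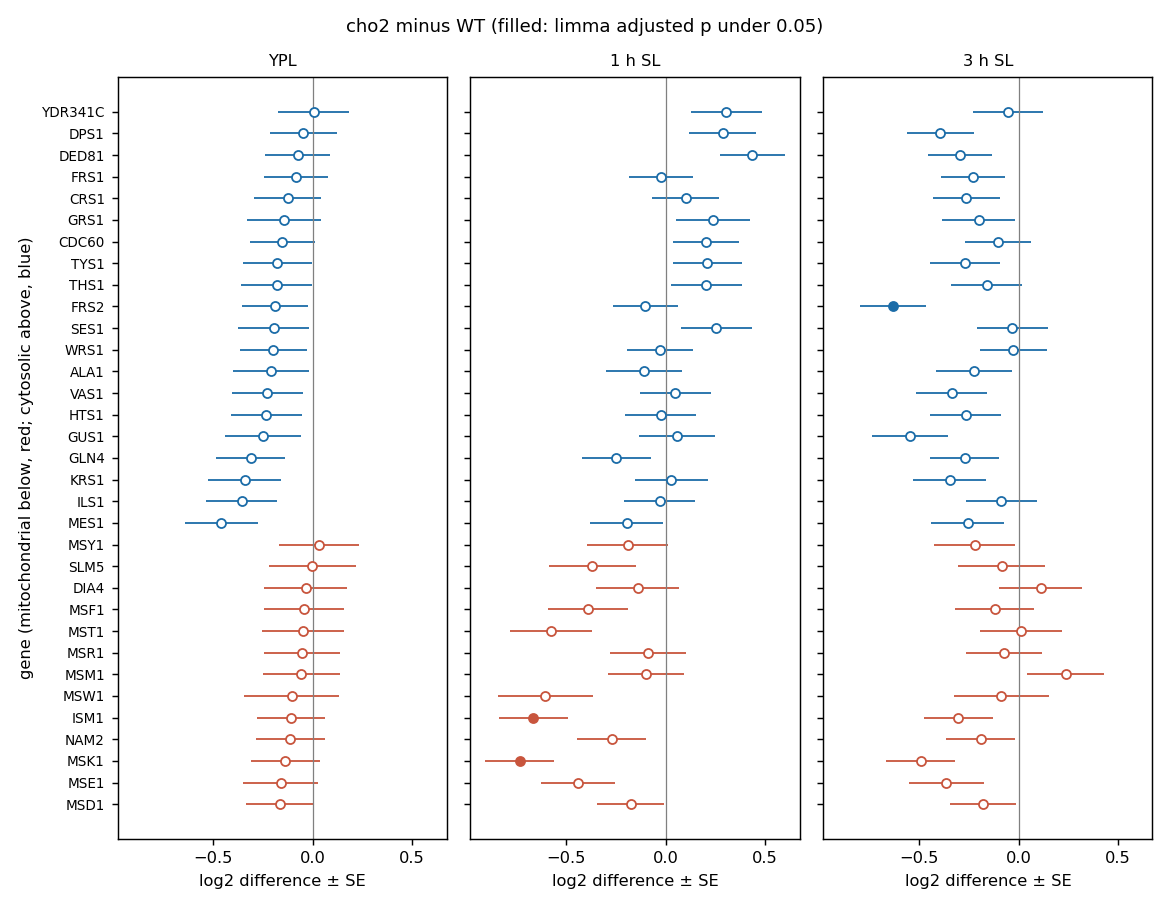
Log2 difference ± SE between cho2-delta and WT (x axis) of each synthetase gene (y axis) in YPL and at 1 h and 3 h in SL; filled points had a limma adjusted p under 0.05. The filled points are MSK1 (-0.73) and ISM1 (-0.67) at 1 h and FRS2 (-0.63) at 3 h.

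The difference between the strains in their response to the switch was tested itself. At 1 h, where 3.61% of all genes were called, no synthetase gene was called in limma or edgeR, 3 had an unadjusted p under 0.05 (1 cytosolic and 2 mitochondrial), and DESeq2 called DED81 as falling less in cho2-delta. All 20 cytosolic genes had an estimate above 0, with a median of 0.30, and all 13 mitochondrial genes an estimate below 0, with a median of -0.28, beside -0.09 over all genes. The genes were read in the same libraries, so their signs are not independent. The estimate for MSK1 was -0.60 ± 0.25 (limma adjusted p = 0.239) and that for DED81 was 0.51 ± 0.23 (limma adjusted p = 0.305). Of the 137 cytosolic ribosomal protein genes 54 were called, as falling less in cho2-delta, with a median of 0.91, where 1.62% of all genes were called in that direction; DESeq2 called 94 of these 137 genes and TMM scaling 59.

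At 3 h, where 0.703% of all genes were called, no synthetase gene was called in limma, edgeR or DESeq2, and none had an unadjusted p under 0.05. The medians were -0.04 for the cytosolic and -0.08 for the mitochondrial genes. For the step from 1 h to 3 h, where 2.11% of all genes were called, limma and edgeR called none, 4 cytosolic genes had an unadjusted p under 0.05, and DESeq2 called DED81 and DPS1 as lower in cho2-delta. DED81 had the largest estimate, at -0.73 ± 0.23 (limma adjusted p = 0.11). In that gene the levels were 1462 and 1480.5 at 1 h and 1193 and 1214 at 3 h in WT, against 1996 and 1989 at 1 h and 1073 and 897 at 3 h in cho2-delta.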

How the data were processed

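Poly-A RNA of 12 libraries was made into stranded libraries and read on an Illumina HiSeq, per the labels' protocols. The authors deposited 1 signal value per gene and library. Per the submitters' processing notes, Bowtie, DESeq and build sacCer2 were used. Their versions, the counting tool, the annotation and whether strand was used are not given in the labels or the file. Every value of a deposited column was a whole multiple of 1 step to within 0.01 reads (100%), and reads were recovered by dividing by it. Of 6685 listed genes, 6006 matched the reference annotation R64, which gave names, lengths, promoters and proteins. Its coordinates were read from its own genome and not mixed with sacCer2.

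The main test was limma-trend (limma 3.58.1, R 4.3.3) on log2(value + 1). It used the 6546 genes that reached 10 in 2 or more libraries, in a single fit of all 12 libraries with a mean for each group. Each of 12 contrasts had its p-values adjusted by Benjamini-Hochberg over all genes, with calls at 0.05. A log2 difference on this scale understates the change of low genes. Alternatives were a pseudocount of 5, no filter, a filter at 50, TMM scaling, a replicate block, only the groups compared, count tests with edgeR 4.0.16 and DESeq2 1.42.0 on the recovered reads, and leaving out single libraries. Leaving out both 3 h libraries numbered 2 was added after the data were seen. The limma fit was tested on simulated data.

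Members, companion lists, tests and motifs were chosen with earlier results of these data known. All 33 members could be named; values in every library are given for the called members with the largest differences and for those against the majority of their set. ALA1, CDC60, HTS1, VAS1, GCN4 and further members were given as contrasts by size or role. Genes of other lists were limited to about 3 a list and comparison. Ribosomal protein genes were taken by symbol, leaving out RPP1 and MRP8, which encode none. Proteins were translated from the reference and aligned with gaps at the ends left free (BLOSUM62, inner gap costs 11 and 1, Biopython 1.88). Pairs under 200 aligned residues (FRS1 with MSF1, CDC60 with NAM2 and TYS1 with MSY1) were left out of the range of identity. Reads of near-identical copies, if any, could be split between them.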

Additional observations from a re-analysis of the deposited data

How the results depend on the processing

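Of 147 calls of synthetase genes over the contrasts, a pseudocount of 5, a filter at 50 and the replicate block lost 0, TMM scaling and edgeR 1 each, no filter 2, DESeq2 3, only the groups compared 7, leaving out 1 library 0 to 18, and leaving out both 3 h libraries numbered 2 lost 7; none changed sign. Same-numbered deviations correlated at 0.129 to 0.542 between the WT groups and at 0.419 between the strains at 3 h, but down to -0.196 for other pairs of groups, so the numbers were not taken to pair the libraries; with the replicate block 2 cytosolic genes were lower in cho2-delta at 3 h and 2 rose from 1 h to 3 h in cho2-delta. TMM scaling moved the median of all genes at 1 h in WT from 0.18 to 0.03 and from 1 h to 3 h from -0.21 to -0.02. It moved the calls over all genes from 2209 higher and 1557 lower to 1979 and 2079 at 1 h in WT, from 726 and 1671 to 1367 and 1298 from 1 h to 3 h in WT, from 523 and 1555 to 1310 and 1294 in cho2-delta, from 1296 and 2420 to 1910 and 2319 for 3 h against YPL in cho2-delta, from 238 and 366 to 528 and 471 for cho2-delta against WT at 1 h, and from 40 and 185 to 120 and 236 at 3 h. For the strain difference of the response it moved them from 106 and 130 to 215 and 208 at 1 h, from 5 and 41 to 15 and 46 at 3 h, and from 44 and 94 to 123 and 199 from 1 h to 3 h. On the recovered reads at 1 h in WT, edgeR called 2248 genes higher and 1578 lower, and DESeq2 1995 and 2069. DESeq2 called 1429 higher and 1260 lower from 1 h to 3 h in cho2-delta. For cho2-delta against WT at 1 h it called 647 and 513.

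Counts that moved by over 1.5 times were these, and the cause was not tested. For cho2-delta against WT at 1 h, the cytosolic genes called higher were 0, and 3 with TMM scaling, 1 with only the groups compared, 3 with DESeq2 and 2 without both 3 h libraries numbered 2; the mitochondrial genes called lower were 2, and 4 with only the groups and 6 without both libraries. For cho2-delta against WT at 3 h, the cytosolic genes called lower were 1, and 0 with only the groups or without both libraries; without both, 1 mitochondrial gene was called higher. From 1 h to 3 h in cho2-delta the cytosolic genes called higher were 1, and 11 with TMM scaling, 0 with only the groups, 11 with DESeq2 and 11 without both libraries; the mitochondrial genes called lower were 2, and 1 with no filter, TMM scaling, only the groups or DESeq2 and 0 without both, which gave 1 called higher. For the strain difference at 1 h, TMM scaling and DESeq2 each called 1 cytosolic gene higher, and only the groups compared, and leaving out both libraries, each called 2 mitochondrial genes lower. For that from 1 h to 3 h, TMM scaling and DESeq2 each called 2 cytosolic genes lower, and leaving out both libraries called 2 mitochondrial genes higher.

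Leaving out 1 library gave 1 to 12 cytosolic rises, 1 to 3 cytosolic falls and 2 to 9 mitochondrial falls from 1 h to 3 h in WT. It gave 0 to 9, 3 to 5 and 0 to 5 for the same counts in cho2-delta. Cytosolic falls from YPL were 17 to 20 at 1 h and 12 to 17 at 3 h in WT, and 12 to 18 and 11 to 18 in cho2-delta; mitochondrial falls were 13 throughout. For cho2-delta against WT at 1 h it gave 0 to 1 cytosolic genes higher and 0 to 5 mitochondrial genes lower, and at 3 h 0 to 5 cytosolic and 0 to 3 mitochondrial genes lower. For the strain difference from 1 h to 3 h it gave 0 to 3 cytosolic genes lower. With only the 250 bases before the start, RRPE stayed at 85.0% of cytosolic and 7.69% of mitochondrial promoters, and the Gcn4 core was in 35.0%, TGACTCA in 5% and PAC in 25.0% of cytosolic promoters. Among all promoters RRPE was then in 21.7%, the Gcn4 core in 6.25%, TGACTCA in 2.17% and PAC in 17%. The shallowest library, at 3.17 M reads, limits the mitochondrial genes most: DIA4 had 50 reads there.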
